A study of Mus musculus with 4 samples.

Results

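The genes described here encode protein kinase A (PKA) and the adenylyl cyclases that feed it, in round spermatids, which are haploid germ cells that have completed meiosis and not yet elongated. They are the rows of the deposited table listed as Prkaca, Prkacb, Prkar1a, Prkar1b, Prkar2a, Prkar2b, Adcy10, Adcy3, Adcy5 and Adcy6. All 10 were found among the 25965 genes of the table, as 2 catalytic subunits, 4 regulatory subunits and 4 cyclases. The series compared 2 libraries of spermatids with the genotype Wfdc15a-/- with 2 libraries of the genotype Wfdc15a+/-, so that the controls also carry 1 altered allele. All the cells came from testes of mice on an outbred background (ICR) and were isolated by FACS, and their RNA was amplified with Smart-seq2, a full-length protocol. Wfdc15a belongs to a family of genes for small WAP-domain proteins, some of which inhibit proteases. The labels give neither the age of the mice, nor the altered part of the gene, nor the number of animals behind a library. P-values therefore measure the spread between these libraries, which may be technical.

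Adenylyl cyclases make cyclic AMP (cAMP) from ATP. In the resting PKA holoenzyme a dimer of regulatory subunits holds a pair of catalytic subunits inactive, and cAMP binding to the regulatory subunits frees the catalytic activity. In sperm the soluble cyclase encoded by Adcy10 responds to bicarbonate and calcium, and PKA then drives flagellar beating and capacitation, the maturation that makes sperm able to fertilize. Anchoring proteins (AKAPs) tie the regulatory subunits to structures such as the fibrous sheath of the flagellum. Spermatids transcribe many genes of this pathway well before the flagellum works.

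Of the 10 genes, Prkar1a, Adcy10 and Prkaca were the most abundant per length in every library, and their levels differed between the genotypes by less than the spread between libraries. Prkar2a and Prkar1b, a regulatory subunit gene of each type, were lower in both Wfdc15a-/- libraries than in both Wfdc15a+/- libraries. So was Adcy6, beside 15.0% of all genes tested. Prkacb and Adcy5 were higher in both Wfdc15a-/- libraries, beside 23.5% of all genes tested. Prkar2a averaged 64.9 ± 18.05 RPM (reads per 1e6 reads of a library) in Wfdc15a-/- and 123.8 ± 56.1 RPM in Wfdc15a+/- libraries (SD, n = 2 each). Prkar1b averaged 19.7 ± 1.94 RPM in Wfdc15a-/- and 32.1 ± 2.07 RPM in Wfdc15a+/- libraries (SD, n = 2 each). Neither passed the limma test across all genes (adjusted p = 0.607 for Prkar1b and 0.586 for Prkar2a), nor did any other of the 10.

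Promoters of regulatory subunit genes are shown because Prkar2a and Prkar1b were those of this kind lower in both Wfdc15a-/- libraries. Prkar1a is shown as the most abundant gene of the set per exon length. Its printed window is 1 of 2 among its starts that hold the full element named below. Each window runs from 250 bases before to 50 bases after a RefSeq transcription start on the GRCm38.p6 build (mm10), 5′ to 3′ on the strand of the gene. Capitals mark the letters TGACG or their complement CGTCA, the core of the cAMP response element, and TGACGTCA, the full element, which contains both. The windows are those of Prkar2a at chr9:108691893-108692192 on the plus strand, Prkar1b at chr5:139149952-139150251 on the minus strand and Prkar1a at chr11:109650699-109650998 on the plus strand.
Prkar2a: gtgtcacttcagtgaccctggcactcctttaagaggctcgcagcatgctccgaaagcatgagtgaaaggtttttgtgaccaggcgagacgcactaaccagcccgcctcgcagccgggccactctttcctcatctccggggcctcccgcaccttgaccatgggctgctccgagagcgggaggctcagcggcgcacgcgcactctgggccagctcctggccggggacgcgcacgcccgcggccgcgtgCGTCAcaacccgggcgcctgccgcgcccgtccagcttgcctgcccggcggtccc
Prkar1b: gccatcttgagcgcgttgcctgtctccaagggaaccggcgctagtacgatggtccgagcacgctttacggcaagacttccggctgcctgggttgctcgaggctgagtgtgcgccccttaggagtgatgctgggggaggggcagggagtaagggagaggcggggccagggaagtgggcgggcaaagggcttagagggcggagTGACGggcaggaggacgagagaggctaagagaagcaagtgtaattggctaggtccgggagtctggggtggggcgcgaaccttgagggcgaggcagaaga
Prkar1a: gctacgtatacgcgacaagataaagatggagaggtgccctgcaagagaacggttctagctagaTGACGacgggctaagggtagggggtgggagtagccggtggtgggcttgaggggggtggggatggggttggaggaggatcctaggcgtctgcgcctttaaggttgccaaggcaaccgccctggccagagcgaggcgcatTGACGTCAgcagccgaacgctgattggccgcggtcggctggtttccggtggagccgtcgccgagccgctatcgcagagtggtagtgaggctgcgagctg
The starts of the Prkar2a and Prkar1b windows coincide with the deposited 5′ end of the gene. Each window holds 1 core, first base 4 and 49 bases before the start. Prkar1b also has RefSeq starts at 139129752, 139130386, 139130477 and 139150703, and no window of these held a core. The Prkar1a window belongs to 1 of 6 RefSeq starts of that gene, 1544 bases from the deposited 5′ end. Unlike those of Prkar2a and Prkar1b, it does not lie at that end. The nearest Prkar1a start to that end is 109649363, 42 bases away. The printed Prkar1a window holds the full element, first base 49 bases before the start, and 1 further core. The overlapping window of the start at 109650862 holds the same element. Of the remaining Prkar1a windows, that of the start at 109649363 held 1 core, and those at 109649023, 109650542 and 109651342 held none. A core was present in 20.8% and the full element in 1.79% of the 32851 windows of the RefSeq table, searched on both strands. Among the genes described here, 9 had a window, and 7 of their 23 windows held a core. A match is a run of letters and says nothing of binding.

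Prkaca has 2 RefSeq starts, and both windows are shown because a value summed over the gene cannot separate transcripts that begin at them. Mouse testis is known to make a catalytic subunit variant with its own first exon. The upstream start, at the deposited 5′ end, has the window chr8:83972728-83973027, and the downstream start has chr8:83976633-83976932, both on the plus strand.
Prkaca upstream: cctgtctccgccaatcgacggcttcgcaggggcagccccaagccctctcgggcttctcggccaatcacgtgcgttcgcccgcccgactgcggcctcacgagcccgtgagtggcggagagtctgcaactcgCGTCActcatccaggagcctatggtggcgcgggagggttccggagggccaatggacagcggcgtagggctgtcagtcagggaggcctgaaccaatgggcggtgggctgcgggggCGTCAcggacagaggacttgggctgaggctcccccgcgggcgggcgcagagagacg
Prkaca downstream: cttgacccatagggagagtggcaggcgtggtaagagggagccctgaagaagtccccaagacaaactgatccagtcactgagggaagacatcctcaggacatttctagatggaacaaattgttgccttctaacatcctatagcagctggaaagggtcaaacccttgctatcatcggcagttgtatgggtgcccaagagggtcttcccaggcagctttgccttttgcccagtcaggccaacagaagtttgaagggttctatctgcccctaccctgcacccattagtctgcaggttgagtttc
The upstream window was 69.7% G and C and held 2 cores, first bases 120 and 6 bases before the start. The downstream window was 51.3% G and C and held none, beside a median of 52.7% G and C over all windows. Among the Prkacb windows, only that of the start at 146812946 held a core, first base 102 bases before the start. No window of Adcy10, Adcy3, Adcy5 or Prkar2b held a core, and Adcy6 had no window.

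The depth recovered from the steps of the values was 21160061 and 11268909 reads for Wfdc15a-/- libraries 1 and 2, and 5774112 and 33853604 reads for Wfdc15a+/- libraries 1 and 2. The targeted transcript Wfdc15a (chromosome 2, 164198863 to 164200130) was at 82.6 and 59.5 RPM in Wfdc15a-/- libraries, against 121 and 85.2 RPM in Wfdc15a+/- libraries. Its log2 difference was -0.53 (SE 0.29, limma adjusted p = 0.647), and it was -0.77 without Wfdc15a-/- library 1, -0.30 without Wfdc15a-/- library 2, -0.28 without Wfdc15a+/- library 1 and -0.79 without Wfdc15a+/- library 2. The genotype is therefore given as labelled. The labelled cell type was checked on its markers. Counts without overlap are to be read beside all genes tested, of which 23.5% were higher and 15.0% lower. The counts include markers that did not reach 1 RPM in at least 2 libraries. Those that did were 14 of 15 macrophage, 5 of 9 Leydig, 8 of 11 Sertoli and 7 of 10 peritubular and endothelial markers. At 0 reads the value is set by library depth, so such markers can differ by depth alone. All 13 round spermatid markers were read in every library (4 higher and 0 lower without overlap), at a summed 5898 and 5356 RPM in Wfdc15a-/- and 4885 and 5509 RPM in Wfdc15a+/- libraries. Of 15 macrophage markers, 13 were higher without overlap and 0 lower in Wfdc15a-/- libraries, summing to 405 and 132 RPM, against 42.1 and 40.9 RPM in Wfdc15a+/- libraries, where Tyrobp had 0 reads. Of 10 elongating spermatid markers, 0 were higher and 6 lower without overlap, with sums of 4636 and 4310 RPM in Wfdc15a-/- and 4314 and 7994 RPM in Wfdc15a+/- libraries. Leydig markers (5 of 9 higher and 1 lower without overlap) summed to 39.7 and 19.3 RPM in Wfdc15a-/- libraries, against 9.53 and 4.93 RPM in Wfdc15a+/- libraries, where Hsd3b6 had 0 reads. Sertoli markers (5 of 11 higher, 0 lower) summed to 67.0 and 60.8 RPM in Wfdc15a-/- and 26.7 and 42.0 RPM in Wfdc15a+/- libraries, and Amh had 0 reads in all 4. Peritubular and endothelial markers (6 of 10 higher, 1 lower) summed to 37.6 and 37.8 RPM in Wfdc15a-/- and 36.2 and 18.3 RPM in Wfdc15a+/- libraries. Spermatocyte markers (1 of 12 higher, 1 lower) summed to 1071 and 1265 RPM in Wfdc15a-/- and 1296 and 968 RPM in Wfdc15a+/- libraries. Spermatogonial markers (4 of 12 higher, 2 lower) summed to 291 and 246 RPM in Wfdc15a-/- and 321 and 301 RPM in Wfdc15a+/- libraries. Fewer cells of a type and less RNA per cell cannot be told apart in these libraries.

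Levels of different genes were compared as RPM per kb of exons, with exon lengths from GENCODE M21. Prkar1a stood first, at 83.8 ± 11.0 RPM per kb in Wfdc15a-/- and 92.9 ± 9.46 RPM per kb in Wfdc15a+/- libraries (SD, n = 2 each). Adcy10 followed at 51.1 ± 5.79 RPM per kb in Wfdc15a-/- and 45.9 ± 8.17 RPM per kb in Wfdc15a+/- libraries, and Prkaca at 35.5 ± 0.231 RPM per kb in Wfdc15a-/- and 35.5 ± 3.002 RPM per kb in Wfdc15a+/- libraries. The ranges of these 3 genes over the 4 libraries did not overlap one another. The place of Prkar1a before Adcy10 depends on the exon lengths. In RPM, Adcy10 was above Prkar1a in every library but Wfdc15a+/- library 1. Prkar2a came next at 8.17 to 25.6 RPM per kb over the libraries, and its range overlapped that of Prkar1b, at 4.80 to 8.82 RPM per kb. Prkar2b lay below at 1.74 to 2.45 RPM per kb, without overlap with either neighbour. Adcy3, Adcy6, Prkacb and Adcy5 came last with means of 1.23, 0.396, 0.274 and 0.174 RPM per kb over the 4 libraries, and each range overlapped the next. The order of these last 4 was therefore not resolved by their spread.

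**Figure D1:**
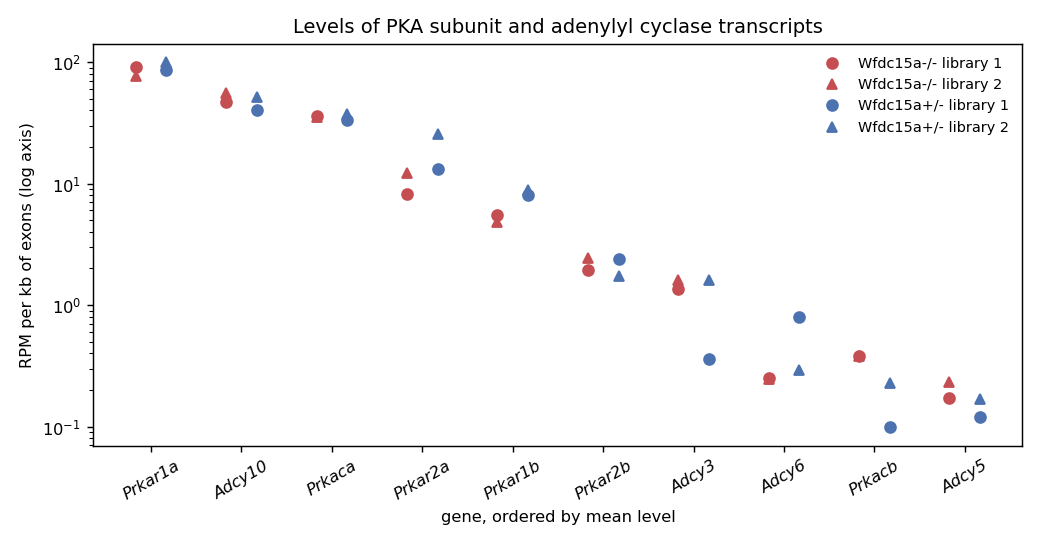
Level of each gene in RPM per kb of exons on a log axis, with the genes ordered by mean level over 4 libraries, Wfdc15a-/- in red left of Wfdc15a+/- in blue, circles for library 1 and triangles for library 2. Prkar1a, Adcy10 and Prkaca lie at 33.3 RPM per kb or more in every library and the next gene, Prkar2a, between 8.17 and 25.6 RPM per kb.

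The comparison of the genotypes asked whether any of these transcripts differed when the second allele was altered too. It was fitted with limma on the deposited log2 values of all 15888 genes that reached 1 RPM in at least 2 libraries, and all 10 genes described here were among them. None of the 10 passed an adjusted p of 0.05, and 0% of all genes tested did, with limma and likewise with voom weights on the recovered reads. At an unadjusted p under 0.05 there were 2 of the 10 with limma (8.08% of all genes tested) and 2 with voom (12.3% of all genes tested). With limma 0 of them were higher (6.21% of all genes tested) and 2 were lower (1.87% of all genes tested), namely Prkar2a and Prkar1b. Both Wfdc15a-/- libraries lay above both Wfdc15a+/- libraries for 2 of the 10, Prkacb and Adcy5 (23.5% of all genes tested), and below both for 3, Prkar1b, Prkar2a and Adcy6 (15.0% of all genes tested). The median log2 difference of the 10 was 0.05, with 6 above 0 and 4 below, beside a median of 0.07 over all genes tested, of which 8906 were above 0 and 6982 below. The count of 2 at an unadjusted p under 0.05 became 0 without Wfdc15a-/- library 1, 1 without Wfdc15a-/- library 2, 2 without Wfdc15a+/- library 1 and 3 without Wfdc15a+/- library 2. Over all 15888 genes the same fits gave 560, 643, 2060 and 2832 genes at that level, beside 1283 with all 4 libraries.

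**Figure D2:**
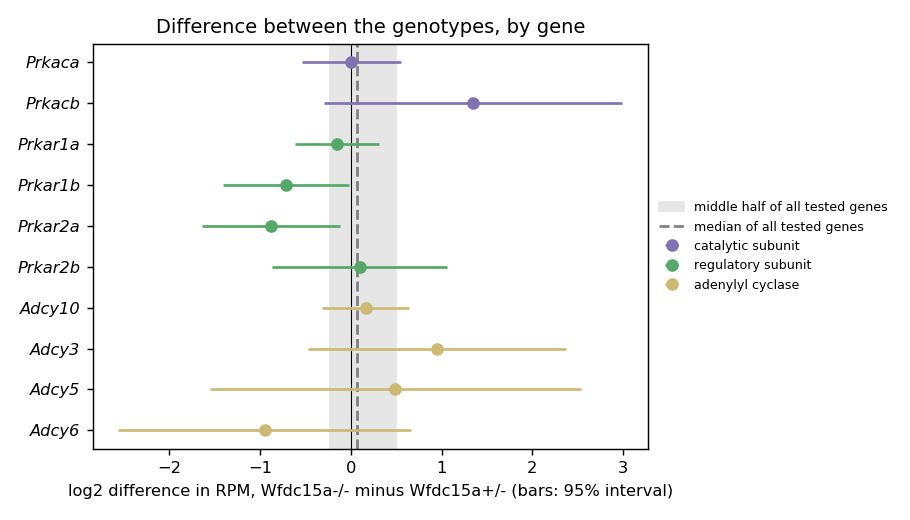
Log2 difference in RPM, Wfdc15a-/- minus Wfdc15a+/-, for each gene, with points for the limma estimate and bars for its 95% confidence interval over 2 libraries per genotype. The grey band spans the middle quartiles of all 15888 genes tested. The unadjusted intervals of Prkar1b (-1.40 to -0.02) and Prkar2a (-1.64 to -0.12) lie below 0 and the others cross it.

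Prkaca, on chromosome 8 from 83972978 to 83996445, encodes the catalytic subunit C-alpha. It was at 88.8 and 87.9 RPM in Wfdc15a-/- libraries, against 82.96 and 93.5 RPM in Wfdc15a+/- libraries. Both Wfdc15a-/- values lay between the control values. The log2 difference was 0.0043 (95% interval -0.54 to 0.55, limma adjusted p = 0.999), and its sign changed with the scaling. With median-ratio scaling it was -0.056.

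Prkacb, on chromosome 3 from 146729579 to 146812960, encodes C-beta, the catalytic subunit known from brain and many somatic tissues. It was at 3.36 and 3.37 RPM in Wfdc15a-/- libraries (71 and 38 reads), against 0.866 and 2.01 RPM in Wfdc15a+/- libraries (5 and 68 reads). The Wfdc15a-/- values were nearly equal and above both controls, which differed between themselves by 1.21 on the log2 scale. The 5 reads of Wfdc15a+/- library 1 have a 95% Poisson interval of 0.281 to 2.02 RPM, which covers counting error only and reaches the other control. The log2 difference of 1.35 (SE 0.74) did not pass (limma adjusted p = 0.656), and it was 0.74 without Wfdc15a+/- library 1. The macrophage marker sum was also higher in both Wfdc15a-/- libraries, at 405 RPM in library 1 and 132 RPM in library 2. Its part in the Prkacb values was not tested.

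The balance of the catalytic genes was taken within each library, where a constant scaling factor for the library cancels. Per length, Prkaca stood 93.3-fold and 91.9-fold above Prkacb in Wfdc15a-/- libraries, and 338-fold and 164-fold above it in Wfdc15a+/- libraries. Prkacb made up 1.06% and 1.08% of catalytic subunit level in Wfdc15a-/- libraries, and 0.295% and 0.605% in Wfdc15a+/- libraries. These folds and shares depend on the exon lengths, 2.49 kb for Prkaca and 8.77 kb for Prkacb. In RPM the folds are smaller, while the log2 difference between the genotypes does not depend on length. The genotypes did not overlap, and the mean log2 ratio differed by -1.35. An exact permutation test over the 4 libraries gave p = 0.333 (two-sided), which is the smallest p that 2 against 2 libraries allow. Without Wfdc15a+/- library 1, whose Prkacb value rests on 5 reads, the difference was -0.83.

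Among the regulatory subunits, Prkar1a and Prkar1b encode the type I forms, RI-alpha and RI-beta, which are largely cytosolic. Prkar1a, on chromosome 11 from 109649405 to 109669656, was at 395 and 328 RPM in Wfdc15a-/- libraries, against 372 and 430 RPM in Wfdc15a+/- libraries. The genotypes overlapped, and the log2 difference was -0.15 (95% interval -0.62 to 0.31, limma adjusted p = 0.893). It stayed below 0 in all 12 alternatives run, from -0.29 to -0.02.

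Prkar1b, on chromosome 5 from 139017306 to 139150001, encodes the subunit known mainly from neurons. It was at 21.0 and 18.3 RPM in Wfdc15a-/- libraries, against 30.7 and 33.6 RPM in Wfdc15a+/- libraries. Both Wfdc15a-/- values were lower than both controls, and the gap between replicates was 0.20 in Wfdc15a-/- and 0.13 in Wfdc15a+/- libraries on the log2 scale. The log2 difference was -0.71 (SE 0.31, limma adjusted p = 0.607), a ratio of means of 0.612. It kept between -0.81 and -0.61 when any 1 library was left out, and between -0.77 and -0.68 in the other alternatives, with adjusted p from 0.350 to 0.9996 over all of them. A listed gene on the same strand, Gm15672, overlaps 2426 bases of Prkar1b. It was at 3.45 and 4.79 RPM in Wfdc15a-/- libraries, against 5.54 and 8.98 RPM in Wfdc15a+/- libraries, and reads of the pair may have been shared.

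Prkar2a and Prkar2b encode the type II subunits, RII-alpha and RII-beta, the forms that most AKAPs bind. Prkar2a, on chromosome 9 from 108692143 to 108749512, was at 52.1 and 77.6 RPM in Wfdc15a-/- libraries, against 84.2 and 163 RPM in Wfdc15a+/- libraries. The Wfdc15a-/- libraries were the lower pair, but the higher of them lay close to the lower control, and the controls stood 0.96 apart on the log2 scale. The log2 difference was -0.88 (SE 0.34, limma adjusted p = 0.586), a ratio of means of 0.524. It was -0.40 without Wfdc15a+/- library 2, -0.60 without Wfdc15a-/- library 1, -1.17 without Wfdc15a-/- library 2 and -1.36 without Wfdc15a+/- library 1. The last of these passed (adjusted p = 0.00755, where the alternatives ranged from 0.00755 to 0.9996), in a fit whose spread comes from the Wfdc15a-/- libraries alone. Wfdc15a+/- library 2 also held the highest sum of elongating spermatid markers, 7994 RPM beside 4310 to 4636 RPM in the other 3 libraries. The part of those cells in the Prkar2a values was not tested.

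Prkar2b, on chromosome 12 from 31958476 to 32061296, encodes the RII form best known from fat and brain. It was at 7.04 and 8.96 RPM in Wfdc15a-/- libraries, against 8.66 and 6.35 RPM in Wfdc15a+/- libraries. The values interleaved, with a log2 difference of 0.10 (95% interval -0.86 to 1.06, limma adjusted p = 0.975) that was -0.085 with quantile normalization.

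Set against one another within each library, Prkar1a made up 85.4% and 79.6% of regulatory subunit level per length in Wfdc15a-/- libraries, and 78.5% and 73.3% in Wfdc15a+/- libraries. Prkar2a made up 7.63% and 12.8% in Wfdc15a-/- libraries, and 12.0% and 18.9% in Wfdc15a+/- libraries. Prkar1b made up 5.15% and 5.03% in Wfdc15a-/- libraries, and 7.33% and 6.49% in Wfdc15a+/- libraries. The Prkar1a share was higher and the Prkar1b share lower in both Wfdc15a-/- libraries than in both controls, while the Prkar2a shares overlapped. Type I exceeded type II level by 9.61-fold and 5.52-fold in Wfdc15a-/- libraries, and by 6.05-fold and 3.96-fold in Wfdc15a+/- libraries (log2 difference 0.57, exact permutation p = 0.667, two-sided). That difference was 0.17 without Wfdc15a-/- library 1, 0.97 without Wfdc15a-/- library 2, 0.88 without Wfdc15a+/- library 1 and 0.27 without Wfdc15a+/- library 2. The summed regulatory level was 2.97-fold and 2.67-fold the summed catalytic level in Wfdc15a-/- libraries, and 3.28-fold and 3.59-fold in Wfdc15a+/- libraries. Both Wfdc15a-/- ratios were the lower ones, by 0.29 on the log2 scale (exact permutation p = 0.333, two-sided, the smallest that this design allows), and the ratio of transcripts is not a ratio of proteins.

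**Figure D3:**
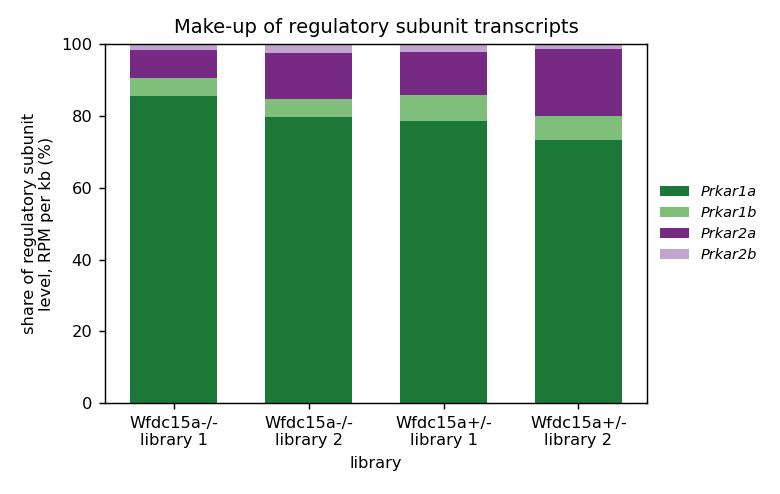
Share of each regulatory subunit gene in the summed regulatory subunit level (RPM per kb of exons, in percent), as stacked bars for each of the 4 libraries. Prkar1a holds 73.3% to 85.4% in every library, and Prkar2a reaches its own largest share, 18.9%, in Wfdc15a+/- library 2.

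Adcy10, on chromosome 1 from 165485183 to 165576774, encodes the soluble cyclase, which mouse sperm need for motility. It was at 411 and 483 RPM in Wfdc15a-/- libraries, against 350.4 and 451 RPM in Wfdc15a+/- libraries. The genotypes overlapped, and the lowest value was that of Wfdc15a+/- library 1. The log2 difference was 0.16 (95% interval -0.31 to 0.64, limma adjusted p = 0.886), and it was -0.019 without that library.

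Adcy3, Adcy5 and Adcy6 encode cyclases of the plasma membrane that G proteins regulate, Adcy3 being known from olfactory cilia and Adcy5 and Adcy6 from heart. Adcy3, on chromosome 12 from 4133103 to 4213525, was at 8.41 and 10.03 RPM in Wfdc15a-/- libraries, against 2.25 and 10.07 RPM in Wfdc15a+/- libraries. Only Wfdc15a+/- library 1, with 13 reads (95% Poisson interval 1.20 to 3.85 RPM, counting error only), stood apart from the other 3 libraries. The log2 difference of 0.95 (SE 0.64, limma adjusted p = 0.727) was -0.13 without that library. Without Wfdc15a+/- library 2 it was 2.03 and passed (adjusted p = 0.0425, where the alternatives ranged from 0.0425 to 0.9996). Cenpo, a centromere protein gene on the opposite strand, overlaps 17522 bases of Adcy3 and was at 15.2 and 14.8 RPM in Wfdc15a-/- libraries, against 6.41 and 8.18 RPM in Wfdc15a+/- libraries. The protocol keeps no strand, so reads of the pair cannot be told apart where their exons overlap.

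Adcy5, on chromosome 16 from 35154877 to 35305737, was at 1.23 and 1.69 RPM in Wfdc15a-/- libraries (26 and 19 reads), against 0.866 and 1.21 RPM in Wfdc15a+/- libraries (5 and 41 reads). The genotypes did not overlap but nearly met, and the log2 difference of 0.49 (SE 0.92, limma adjusted p = 0.925) was -0.027 with quantile normalization. Adcy6, on chromosome 15 from 98589994 to 98607633, was at 1.70 and 1.69 RPM in Wfdc15a-/- libraries (36 and 19 reads), against 5.37 and 1.98 RPM in Wfdc15a+/- libraries (31 and 67 reads). Wfdc15a+/- library 1 was the high one, and the log2 difference of -0.94 (SE 0.73, limma adjusted p = 0.771) was -0.22 without it. The 95% intervals of the log2 difference reached across 0 for Adcy3 (-0.47 to 2.37), Adcy5 (-1.55 to 2.53) and Adcy6 (-2.56 to 0.67).

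Over all 10 cyclase genes of the mouse in this table, Adcy10 held 90.0% and 91.8% of the level per length in Wfdc15a-/- libraries, and 92.2% and 93.4% in Wfdc15a+/- libraries. The Wfdc15a-/- shares were the lower pair by a margin smaller than the gap within either genotype. Against the sum of Adcy3, Adcy5 and Adcy6 alone, Adcy10 stood 26.6-fold and 26.4-fold higher in Wfdc15a-/- libraries, and 31.5-fold and 24.9-fold higher in Wfdc15a+/- libraries (log2 difference -0.079, exact permutation p = 1, two-sided).

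**Figure D4:**
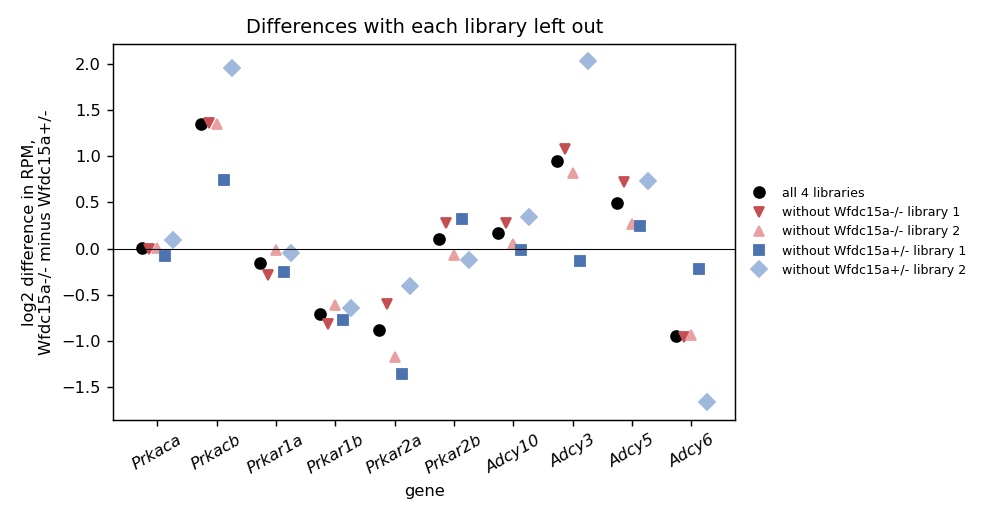
Log2 difference in RPM, Wfdc15a-/- minus Wfdc15a+/-, for each gene with all 4 libraries (black) and with each library left out. The values of Prkar1b stay between -0.81 and -0.61, those of Prkar2a spread from -1.36 to -0.40, and those of Adcy3 from -0.13 to 2.03.

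The other genes of the pathway were taken from 9 lists of 79 symbols, of which 78 were in the table and 71 were tested. None of the 71 passed the adjusted test with limma or voom. At an unadjusted p under 0.05, 3 were higher (6.21% of all genes tested) and 1 was lower (1.87% of all genes tested) with limma, and 8 were called with voom (12.3% of all genes tested). Without overlap, 20 were higher and 7 lower, beside 23.5% and 15.0% of all genes tested, the shares against which the counts without overlap in the single lists are also to be read. Their median log2 difference was 0.10, with 43 above 0 and 28 below. The gene with the smallest p was Gnb1, which encodes a beta subunit of heterotrimeric G proteins. It was at 45.7 and 36.7 RPM in Wfdc15a-/- libraries, against 103 and 67.8 RPM in Wfdc15a+/- libraries. Both Wfdc15a-/- values lay below both controls (log2 difference -1.02, SE 0.30, limma adjusted p = 0.470). Without Wfdc15a+/- library 2, 7 of the 71 passed, beside 558 (3.51%) of all 15888 genes, and Gnb1 was at -1.32 (adjusted p = 0.018, where its alternatives ranged from 0.018 to 0.9996).

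Of the 6 other cyclases, 5 were tested and all 5 were above 0, with a median log2 difference of 1.07, and 3 were higher without overlap. Of all genes tested, 8906 of 15888 were above 0 and 23.5% were higher without overlap. Adcy7, the cyclase known from blood cells and macrophages, was at 7.23 and 5.95 RPM in Wfdc15a-/- libraries, against 2.60 and 2.66 RPM in Wfdc15a+/- libraries. The values did not overlap (log2 difference 1.32, SE 0.52, limma adjusted p = 0.591). The sum of the macrophage markers was higher in these libraries too, as given above, and their part in the Adcy7 values was not tested. Adcy2 and Adcy9 were 1.48-fold and 2.20-fold higher in the ratio of mean RPM without passing (adjusted p = 0.812 and 0.804, limma). The list median of 1.07 is the value of Adcy9 (SE 0.94). Adcy9 had 55 and 14 reads in Wfdc15a-/- libraries, against 6 and 24 reads in Wfdc15a+/- libraries. Adcy8, at 1.30 (SE 1.30), had 6 reads in Wfdc15a+/- library 2, and its genotypes overlapped.

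PKA inhibitor genes encode small peptides that block the free catalytic subunit. Pkig was at 82.1 and 84.0 RPM in Wfdc15a-/- libraries, against 109 and 117 RPM in Wfdc15a+/- libraries (log2 difference -0.44, SE 0.24, limma adjusted p = 0.658). Its replicates lay close together and the genotypes did not overlap. Pkia was at 4.87 and 4.61 RPM in Wfdc15a-/- libraries, against 2.08 and 2.89 RPM in Wfdc15a+/- libraries, and Pkib, which the naming rule gives only for its likeness to Prkar1a, ranged from 155 to 198 RPM with overlap. Prkx, an X-linked kinase gene related to the catalytic subunits, was at 10.2 and 8.70 RPM in Wfdc15a-/- libraries, against 3.46 and 6.41 RPM in Wfdc15a+/- libraries (limma adjusted p = 0.628).

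Phosphodiesterases, which break cAMP down, were balanced, with 7 above 0 and 8 below among 15 tested and a median log2 difference of -0.02. None reached an unadjusted p of 0.05. Pde4b was at 14.2 and 17.7 RPM in Wfdc15a-/- libraries, against 32.2 and 21.4 RPM in Wfdc15a+/- libraries (limma adjusted p = 0.628). Pde3a was at 1.94 and 1.77 RPM in Wfdc15a-/- libraries (41 and 20 reads), against 0.520 and 0.768 RPM in Wfdc15a+/- libraries (3 and 26 reads). Both controls were under the filter of 1 RPM, so Pde3a was tested only because of the Wfdc15a-/- libraries, where it was higher. Pde4a was at 196 and 152 RPM in Wfdc15a-/- libraries, against 87.8 and 173 RPM in Wfdc15a+/- libraries, with overlap. Among the G proteins and cyclase modulators, 3 of 9 were higher and 2 lower without overlap. Gnai1, an inhibitory alpha subunit gene, was at 12.1 and 12.6 RPM in Wfdc15a-/- libraries, against 6.41 and 8.12 RPM in Wfdc15a+/- libraries (limma adjusted p = 0.637). Ric8b, a chaperone gene for stimulatory alpha subunits, was at 4.11 and 2.75 RPM in Wfdc15a-/- libraries, against 0.866 and 1.77 RPM in Wfdc15a+/- libraries (5 and 60 reads, limma adjusted p = 0.638).

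Of the other proteins that bind cAMP, Cnbd2, listed under the older symbol 4921517L17Rik, encodes a cyclic nucleotide binding protein of male germ cells. It was at 251 and 252 RPM in Wfdc15a-/- libraries, against 140 and 176 RPM in Wfdc15a+/- libraries. The libraries of a genotype lay closer together than the genotypes (log2 difference 0.68, SE 0.23, limma adjusted p = 0.544), and over its alternatives the adjusted p ranged from 0.0463 to 0.9996. Rapgef4, an exchange factor gene activated by cAMP, was at 10.02 and 9.85 RPM in Wfdc15a-/- libraries, against 6.58 and 6.17 RPM in Wfdc15a+/- libraries. Slc9c1, listed as Slc9a10 and encoding the sperm sodium-proton exchanger with a cyclic nucleotide binding domain, was at 205 and 313 RPM in Wfdc15a-/- libraries, against 450 and 207 RPM in Wfdc15a+/- libraries, with overlap.

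AKAP genes were near the median of all genes, at 0.14 on the log2 scale over 14 tested, with 9 above 0 and 5 below. Akap2 was at 3.78 and 7.72 RPM in Wfdc15a-/- libraries, against 1.56 and 2.57 RPM in Wfdc15a+/- libraries (9 and 87 reads, limma adjusted p = 0.607). Akap8, for a nuclear anchoring protein, was at 20.9 and 21.9 RPM in Wfdc15a-/- libraries, against 12.8 and 12.997 RPM in Wfdc15a+/- libraries (adjusted p = 0.626, limma). Akap9, for an anchoring protein of the centrosome and Golgi, was at 98.3 and 147 RPM in Wfdc15a-/- libraries, against 186 and 166 RPM in Wfdc15a+/- libraries (adjusted p = 0.626, limma). Akap4, the main anchoring protein gene of the fibrous sheath, was picked once its values were known. It was at 1012 and 1172 RPM in Wfdc15a-/- libraries, against 664 and 1362 RPM in Wfdc15a+/- libraries. The genotypes overlapped, and Akap4 was highest in the library with the highest elongating marker sum, of which Akap4 is itself a member. The sperm proteins that share the docking fold of RII had a median log2 difference of 0.16 over 4 genes, among which Cabyr was at 646 and 643 RPM in Wfdc15a-/- libraries, against 433 and 595 RPM in Wfdc15a+/- libraries (adjusted p = 0.693, limma). Ropn1 and Spa17 of this list overlapped, with log2 differences of 0.28 and -0.13.

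In the list of CREB, CREM and related transcription factors and cofactors, 3 of 7 tested were higher and 0 lower without overlap (23.5% and 15.0% of all genes tested). The median log2 difference of 0.54 is the value of Creb3l4. Creb3l4, a spermatid factor gene, was at 369 and 332 RPM in Wfdc15a-/- libraries, against 195 and 298 RPM in Wfdc15a+/- libraries (adjusted p = 0.616, limma). Its log2 difference of 0.54 was 0.23 without Wfdc15a+/- library 1. It was 0.84 without Wfdc15a+/- library 2 and passed there (limma adjusted p = 0.0373, where the alternatives ranged from 0.0373 to 0.9996). Fhl5, which encodes ACT, a coactivator of the spermatid factor CREM, was at 434 and 297 RPM in Wfdc15a-/- libraries, against 193 and 312 RPM in Wfdc15a+/- libraries. The genotypes overlapped for Fhl5 and not for Creb3l4. Creb1 was at 5.39 and 9.50 RPM in Wfdc15a-/- libraries, against 4.16 and 4.19 RPM in Wfdc15a+/- libraries (adjusted p = 0.713, limma). Crem itself, also picked once its values were known, was at 645 and 699 RPM in Wfdc15a-/- libraries, against 706 and 642 RPM in Wfdc15a+/- libraries. The list of bicarbonate transport and capacitation genes had a median of -0.06 over 9 tested genes, with 1 higher and 2 lower without overlap. Slc4a7, Slc26a6 and Slc4a1, bicarbonate or anion transporter genes, were at 1.41-fold, 0.601-fold and 1.51-fold of their Wfdc15a+/- mean in Wfdc15a-/- libraries (adjusted p = 0.667, 0.718 and 0.880, limma). The genotypes overlapped for Slc4a1, which had 6 reads in Wfdc15a+/- library 1. Its log2 difference of 0.63 was 0.15 without Wfdc15a+/- library 1 and 1.10 without Wfdc15a+/- library 2. It was 0.97 without Wfdc15a-/- library 1 and 0.28 without Wfdc15a-/- library 2.

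**Figure D5:**
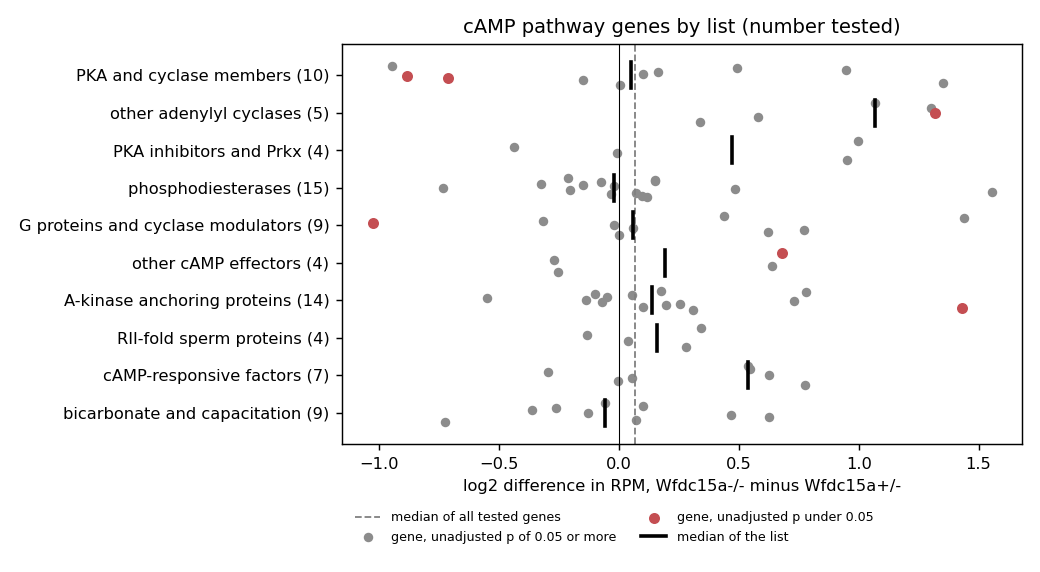
Log2 difference in RPM, Wfdc15a-/- minus Wfdc15a+/-, for the 10 genes described here and for each tested gene of the 9 other cAMP pathway lists (1 point a gene, number tested in brackets), with black bars for list medians. Red points have an unadjusted limma p under 0.05, and no point passed after adjustment. The list of other cyclases has the highest median, 1.07, beside 0.07 for all genes tested (dashed line). That median is the value of Adcy9 (SE 0.94), with 6 reads in Wfdc15a+/- library 1.

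Likeness of pattern was measured as the Euclidean distance between log2 values over the 4 libraries after centring each gene, among the 71 tested pathway genes, for the most abundant gene of each kind. The genes nearest to Prkaca were Gnas, the stimulatory alpha subunit gene (distance 0.12), and Akap7 (0.14). Those nearest to Prkar1a were Spa17 (0.07) and Pkib (0.18), and those nearest to Adcy10 were Pde1a (0.15) and Pde2a (0.19). Spa17 was at 484 and 377 RPM in Wfdc15a-/- libraries, against 432 and 506 RPM in Wfdc15a+/- libraries, the same ranking of libraries as Prkar1a. With 4 libraries and 71 genes such closeness is a description.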

How the data were processed

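The deposited values are log2 RPM, scaled by the authors to each library's total, for 25965 genes, with no adjustment for gene length. The submitters' processing notes name the mm10 build, HISAT2 2.1.0, Trim Galore 0.6.6 and FastQC 0.11.8. The counter, annotation and filters were not given in the sources used here. Per the labels' protocols, sorted cells were amplified with Smart-seq2, which keeps neither strand nor molecular identifiers. The lowest value of each library was taken as 0.9 of a read, and 99.7% to 100.0% of the other values were then whole within 0.01 of a read. PCR reads are not independent molecules, so intervals and the floor of 3 reads cover counting error only.

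Titles gave groups and replicate numbers. Genes that reached 1 RPM in 2 or more libraries were tested with limma 3.58.1 in R 4.3.3 (empirical Bayes with a mean-variance trend, two-sided, Benjamini-Hochberg adjusted over 15888 genes, threshold 0.05). Wfdc15a, all 10 genes described and up to 3 genes with the smallest p in each pathway list are named. The genes, lists and tests were chosen with earlier results of these data known. Of 79 pathway symbols, 76 matched as written, 2 by an older symbol and 1 did not match; all 92 marker symbols matched, 2 of them by an older symbol. Exon lengths are GENCODE M21 unions and promoters are from RefSeq (GRCm38.p6). The code was tested on simulated data. Alternatives were 2 scalings, log2(RPM + 1), no filter and a 5 RPM filter, no variance trend, voom on recovered reads, each library left out and a replicate block.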

Additional observations from a re-analysis of the deposited data

How the results depend on the processing

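Of the 10 genes, 0 passed under every alternative that kept all 4 libraries, and 0 to 1 passed when 1 library was left out. At an unadjusted p under 0.05 there was 1 of them without a variance trend and 1 with a replicate block, and 0 to 3 with 1 library left out. Over all genes tested, 1 passed with log2(RPM + 1), 180 without a filter, 66 with a replicate block and 0 to 558 with 1 library left out. At an unadjusted p under 0.05 there were 2086 without a filter, 840 with the 5 RPM filter, 1961 with voom and 560 to 2832 with 1 library left out, beside 1283. The share of higher genes among these was 76.9%, but 65.6% with median-ratio scaling and 58.2% with quantile normalization. Of the other cAMP pathway genes, 0 to 7 passed with 1 library left out, and 7 without a filter, 8 with voom and 2 to 16 with 1 library left out were at an unadjusted p under 0.05, beside 4. A fit without 1 library takes its spread from the other genotype alone and assumes that the lone library varies like it.

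The sign of Prkaca was reversed with median-ratio scaling (-0.056), with voom (-0.020) and with 1 library left out (-0.082 to 0.091). It was also reversed for Prkar2b with quantile normalization (-0.085) and with 1 library left out (-0.12 to 0.32), and for Adcy5 with quantile normalization (-0.027). With 1 library left out, the log2 differences ranged from -0.019 to 0.35 for Adcy10, -0.13 to 2.03 for Adcy3, -0.0055 to 0.97 for Pde4a, -0.049 to 0.61 for Ropn1, -0.83 to 0.29 for Slc9a10 and -0.31 to 0.048 for Spa17. The difference between the genotypes in the log2 ratio of Adcy10 to the other 3 cyclases ranged from -0.25 to 0.090 in the same fits. The causes were not tested. Of 117 values of the 10 genes under alternatives, 105 kept both sign and side of the threshold. The labels do not say whether libraries of the same replicate number were prepared together. Deviations from the genotype means correlated at -0.076 across genes between libraries of the same number. With 2 libraries per genotype this value cannot settle whether the libraries were paired. In this balanced design the replicate block leaves every log2 difference as it is and changes only the spread, and it called 0 of the 10 genes. Wfdc15a+/- library 1 had the fewest reads, 5774112, with 5 for Prkacb, 13 for Adcy3, 5 for Adcy5 and 31 for Adcy6.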
